A study of Mus musculus with 2 samples.

Results

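Cluster 4 is a group of B cells from mouse colon that carried the most Apoe RNA of the 6 numbered B cell clusters 0 to 5. Its members are the cells that the authors' deposited metadata place in cluster 4: 525 of 6886 cells, of which 285 were in the 5XFAD library and 240 in the WT library. The genes used here to mark it are Apoe, Plac8, Mzb1, Fcmr and Fcrla. All mice were female and 9 months old, and live colon cells were sorted for CD45, a surface protein of leukocytes, after enzymatic dissociation of the lamina propria. The 5XFAD line is a model of familial Alzheimer disease whose mutant human transgenes, APP among them, are driven by the neuronal Thy1 promoter, and the WT mice were their littermates. In each genotype the cells of 3 mice were pooled into 1 library, made with a droplet kit that tags the 3′ end of RNA (10x Chromium, v3.1). The study asks how colon immune cells of 5XFAD mice differ from those of WT littermates.

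B cells read antigen through a membrane immunoglobulin joined to CD79A and CD79B, and present peptides of it to T cells on MHC class II. Naive follicular cells carry IgM and IgD and move between blood and lymphoid follicles, including those of the gut, whereas marginal zone, B-1 and germinal centre cells differ in place and in how they respond. Apolipoprotein E, the product of Apoe, carries cholesterol and other lipids between cells and is best known from liver, macrophages and glia.

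Each library held 3443 cells, with 18604847 UMIs (unique molecular identifiers, 1 per captured RNA molecule) in 5XFAD and 17939499 in WT. Cells of cluster 4 held a median of 5655 UMIs and 1666 genes in 5XFAD, and 5496 UMIs and 1736 genes in WT. In 5XFAD 0 cells of the cluster had 2500 genes or more, against 8 in WT, and the highest gene number was 2473 in 5XFAD and 2686 in WT. Clusters 0 to 3 and 5 held 2079 cells with a median of 5029 UMIs in 5XFAD and 2298 cells with 4722 UMIs in WT. The libraries shared 3 cell barcodes, of which 0 belonged to cluster 4. With 1 library per genotype no test between genotypes was possible, and 95% intervals cover counting error only, not differences between mice or preparations. The clusters were formed from the expression of these genes, so differences between clusters are described and not tested. Cluster 4 made up 8.28% of the 5XFAD library (95% Clopper-Pearson bounds 7.38 and 9.25) and 6.97% of that of WT (6.14 and 7.87). Apoe, which helps define the cluster, itself differed between the libraries, so these shares are not read as a difference in cell abundance.

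Apoe (GRCm38 chromosome 7, 19696109 to 19699188, minus strand) stood at 2001 CPM in cluster 4 of 5XFAD (CPM: UMIs of the gene per 1e+06 UMIs of the cluster) and at 1316 CPM in cluster 4 of WT. In clusters 0, 1, 2, 3 and 5 it stood at 1038, 311, 457, 502 and 705 CPM in 5XFAD, and at 434, 202, 279, 250 and 321 CPM in WT. The level in cluster 4 was thus above that of each of those clusters in both libraries. Summed over those 5 clusters, the log2 ratio of cluster 4 to the rest was 1.78 in 5XFAD (1.71 to 1.84) and 2.09 in WT (2.01 to 2.17). Cluster 6, in which many B cells are class-switched, carried more Apoe than cluster 4, at 3130 CPM in 5XFAD and at 2419 CPM in WT. Cluster 7 carried 555 CPM in 5XFAD and 334 CPM in WT.

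The other marker genes separated cluster 4 less. Plac8 (chromosome 5, 100553725 to 100572245, minus strand), which encodes a small cysteine-rich protein of leukocytes, stood at 1407 CPM in cluster 4 of 5XFAD and at 1225 CPM in that of WT, against 579 to 1092 CPM and 464 to 914 CPM in the other 5 clusters of 5XFAD and of WT. Mzb1, an endoplasmic reticulum cochaperone that helps assemble and secrete antibody, stood at 286 CPM in cluster 4 of 5XFAD and at 294 CPM in that of WT, but at 494 and 617 CPM in cluster 6 of 5XFAD and WT. Fcmr, the Fc receptor for IgM, stood at 542 CPM in cluster 4 of 5XFAD and at 522 CPM in that of WT, above each of clusters 0 to 3 and 5 to 7. Fcrla, an intracellular Fc receptor-like protein of B cells, stood at 308 CPM in cluster 4 of 5XFAD, below the 341 CPM of cluster 0, and at 363 CPM in cluster 4 of WT, above the 340 CPM of cluster 0. Of the 5 markers, Apoe and Mzb1 were thus higher in cluster 6 than in cluster 4 in both libraries. Fcmr and Fcrla were higher in cluster 4 in both, and Plac8, at 1319 CPM in cluster 6 of 5XFAD and 1274 CPM in that of WT, was higher in cluster 4 in 5XFAD only.

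**Figure D1:**
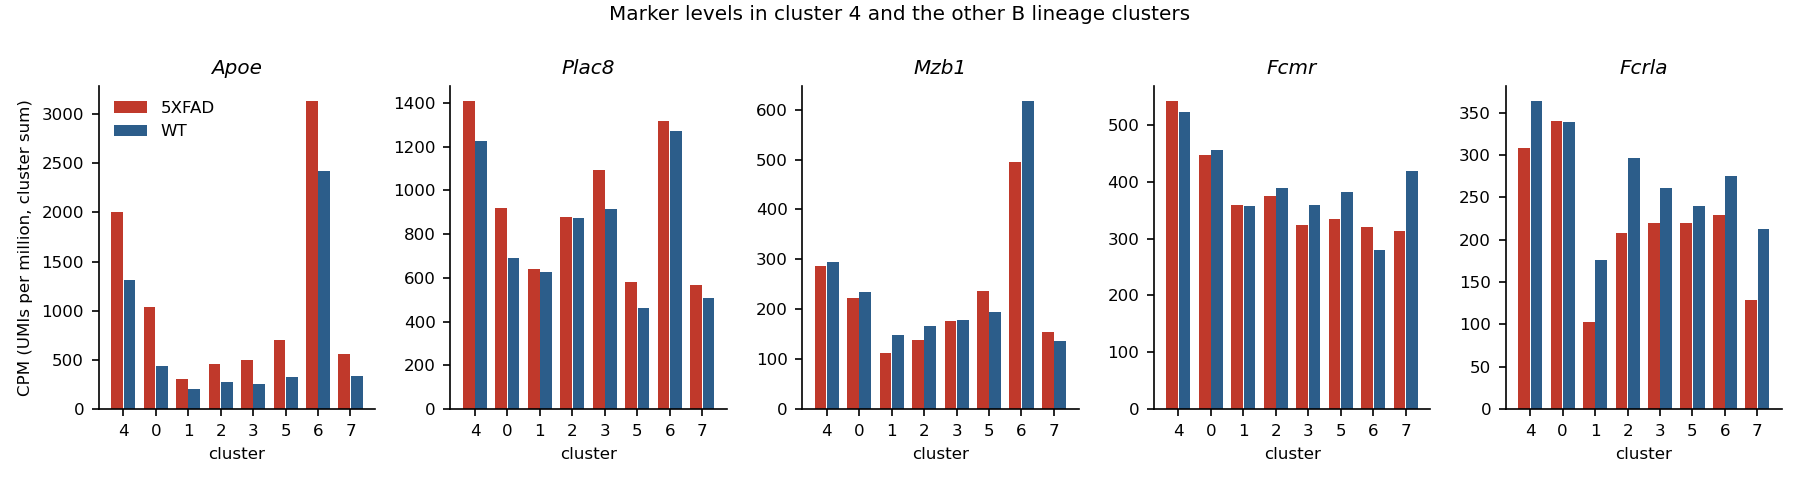
Level of the 5 marker genes in CPM in cluster 4, at the left of each panel, and in clusters 0 to 3 and 5 to 7, with 5XFAD left of WT for each cluster. Each bar is 1 cluster sum in 1 library, so there is no replicate spread. Apoe reached 2001 CPM in 5XFAD and 1316 CPM in WT in cluster 4, below the 3130 and 2419 CPM of cluster 6.

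Most cells of cluster 4 held Apoe RNA. To compare cells at equal depth, each was thinned at random to 3000 UMIs, which left 283 of 285 cells of cluster 4 in 5XFAD and 237 of 240 in WT. The median cell of cluster 4 then held 5 Apoe UMIs in 5XFAD (quartiles 2 and 10, highest 27) and 3 in WT (1 and 6, highest 23). In clusters 0 to 3 and 5 the median was 1 UMI in 5XFAD and 0 in WT, and in cluster 6 it was 8 and 5. Apoe was at 0 UMIs in 9.54% of cluster 4 cells in 5XFAD and in 21.9% in WT, and 27.2% and 11.4% held 10 UMIs or more. The same count of 10 or more was reached by 2.15% and 0.722% of cells in clusters 0 to 3 and 5. Unthinned, 271 of 285 cells of cluster 4 in 5XFAD and 206 of 240 in WT had an Apoe UMI. T and innate lymphoid cells were at 0 in 94.2% of 5XFAD and 93.5% of WT cells after thinning, with unthinned medians of 5559 and 5767 UMIs per cell. The highest count among them was 28 Apoe UMIs in 5XFAD and 10 in WT. Whether their Apoe UMIs came from free RNA, doublets or the cells themselves was not tested. The distributions in cluster 4 were broad and without a gap, and they overlapped those of the other B cell clusters.

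**Figure D2:**
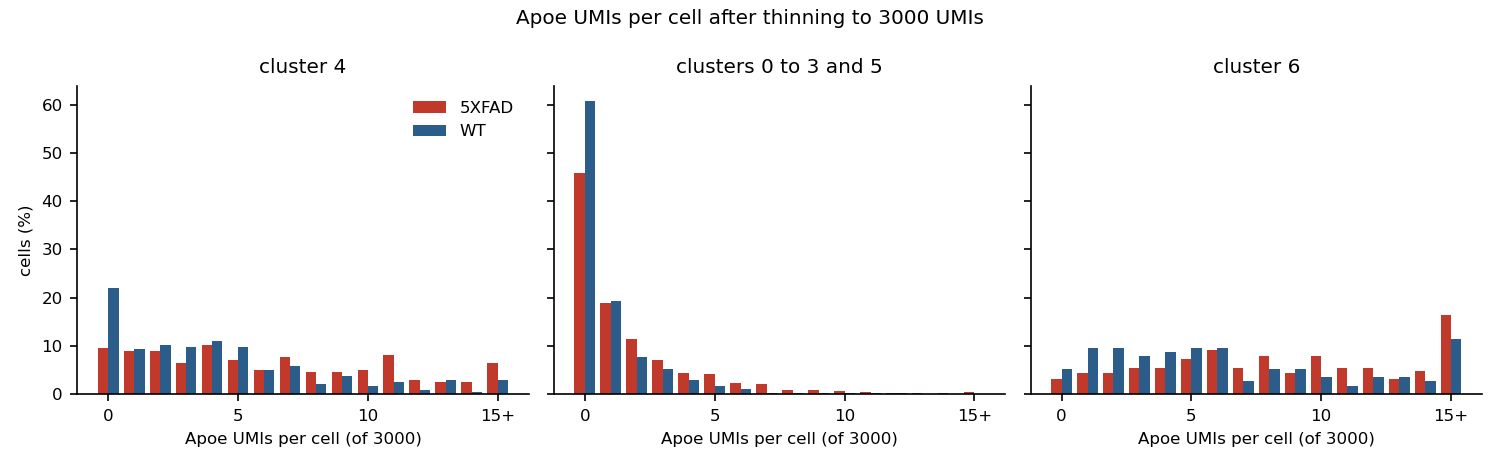
Share of cells (%) by number of Apoe UMIs per cell after thinning to 3000 UMIs, with counts of 15 or more in the last bar, for cluster 4, clusters 0 to 3 and 5, and cluster 6. 5XFAD is drawn left of WT. At 0 UMIs stand 9.54% of cluster 4 cells in 5XFAD and 21.9% in WT, against 45.8% and 60.8% of cells in clusters 0 to 3 and 5.

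The 5 markers were also counted together in each thinned cell. At least 4 of them had a UMI in 59.0% of cluster 4 cells in 5XFAD (167 of 283, interval 53.0 to 64.8) and in 58.2% in WT (138 of 237, 51.7 to 64.6). In clusters 0 to 3 and 5 this held for 23.6% of 5XFAD and 22.9% of WT cells, and in T and innate lymphoid cells for 1 of 737 5XFAD and 0 of 599 WT cells. The nearest of the 5 clusters was cluster 0, with 39.1% in 5XFAD and 212 of 623 cells in WT. In cluster 6 the share was 46.3% in 5XFAD and 57.0% in WT (65 of 114), which in WT was close to that of cluster 4. Of all cells of clusters 0 to 5 that held 4 markers or more, cluster 4 supplied 167 of 650 in 5XFAD (25.7%) and 138 of 646 in WT (21.4%), so most cells with this combination lay outside it.

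Cluster 4 carried the general markers of B cells. Of 10 pan B cell genes, 10 were measured and 0 were past 0.5 on the log2 scale in both libraries against clusters 0 to 3 and 5, where 1.01% of all genes were past it higher and 6.56% lower. Cd79a, a signalling chain of the B cell receptor, stood at 1838 CPM in cluster 4 of 5XFAD and at 1711 CPM in that of WT, against 1955 and 1780 CPM in the other 5 clusters. Cd79b, its partner, stood at 500.03 CPM in cluster 4 of 5XFAD and at 644 CPM in that of WT, against 388 and 555 CPM. Cd74, the invariant chain of MHC class II, stood at 10945 CPM in 5XFAD and at 9922 CPM in WT, against 12320 and 10610 CPM.

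Across genes, the profile of cluster 4 lay closest to clusters 0 and 3. Pearson's r of log2(CPM + 1) was 0.976 with cluster 0 and 0.969 with cluster 3 in 5XFAD, and 0.970 and 0.969 in WT, over 8336 genes of the same library, as a description. Against cluster 3, 1 gene of 5071 was at least 2-fold higher in cluster 4 in both libraries, which was Apoe, and 4 were at least 2-fold lower, which were Idi1, Plk2, Mpp7 and Egr1. Against cluster 0, 0 genes of 6247 were at least 2-fold higher and 15 were lower, among them Id3, Cd180, Plk2, Txndc5 and the lambda light chain genes Iglc1 and Iglc2. Against cluster 1, 32 genes were at least 2-fold higher and 131 lower of 5922.

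The antibody genes of cluster 4 were those of unswitched B cells, as in clusters 0 to 3 and 5. A heavy chain isotype could be called, from at least 3 constant region UMIs with over 50% of 1 isotype, in 234 cells of cluster 4 in 5XFAD and in 211 in WT. In 5XFAD 202 of these were IgM, 32 IgD and 0 of a switched isotype, which allows a share of up to 1.28% (3 counts of the total, as for each count of 0 below). In WT 183 were IgM, 27 IgD and 1 IgG2b. In clusters 0 to 3 and 5, 4 of 1632 called cells were switched in 5XFAD (0.245%) and 7 of 2010 in WT (0.348%). In cluster 6, the other cluster with much Apoe, 56 of 126 called cells were switched in 5XFAD (44.4%) and 50 of 98 in WT (51.0%). A lambda light chain was called in 16 of 278 cells of cluster 4 in 5XFAD (5.76%, 3.33 to 9.18) and in 15 of 238 in WT (6.30%, 3.57 to 10.2). In cluster 3 the share was 1.78% in 5XFAD and 1.16% in WT, and in cluster 0 it was 6.37% and 6.97%.

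Markers of T cells, NK cells, macrophages and granulocytes were low in cluster 4, as in the other B cell clusters. Macrophages are a known source of Apoe: the 12 macrophage and monocyte markers summed to 4.21 CPM in cluster 4 of 5XFAD and 16.4 CPM in that of WT, against 8.49 and 15.7 CPM in clusters 0 to 3 and 5. Of these, Adgre1, Fcgr1 and Trem2 had 0 UMIs, and 7 cells in 5XFAD and 21 in WT held any UMI of the list, with 0 cells holding 3. The T cell list of 10 markers summed to 17.4 CPM in 5XFAD and 19.2 CPM in WT, against 16.7 and 17.8 CPM in clusters 0 to 3 and 5 and 3285 and 3083 CPM in T and innate lymphoid cells. A UMI of the NK cell and ILC list, leaving out Il7r, Gzmb, Klrk1 and Gata3, was held by 5 cells in 5XFAD and 2 in WT, and of the granulocyte and mast cell list by 1 and 1. Plasma cell genes summed to 221 CPM in cluster 4 of 5XFAD and 278 CPM in that of WT, against 345 and 390 CPM, with Tnfrsf17 and Derl3 at 0 UMIs, and 69.5% of cluster 4 cells in 5XFAD and 71.3% in WT held a UMI of that list, against 76.0% and 79.2% of cells in clusters 0 to 3 and 5. The dendritic cell list, which includes Ccr7 and Bst2 that B cells use too, summed to 504 CPM in 5XFAD and 539 CPM in WT, against 628 and 734 CPM. A UMI of it was held by 93.0% of cluster 4 cells in 5XFAD and 89.2% in WT, against 89.4% and 87.1% of cells in the other 5 clusters, with Xcr1, Clec9a, Itgax and Siglech at 0 UMIs in cluster 4. The stromal and endothelial list, of which Pecam1 is also made by leukocytes, summed to 43.9 CPM in 5XFAD and 76.8 CPM in WT, against 44.5 and 85.3 CPM, and was met in 21.8% and 31.2% of cluster 4 cells. Epithelial markers summed to 16.8 and 9.96 CPM, against 17.5 and 12.5 CPM, and a UMI of a globin or other erythroid gene was held by 1 cell in 5XFAD and 15 in WT. In cells with no UMI of the T cell, NK cell, macrophage or granulocyte lists, 256 in 5XFAD and 194 in WT, the log2 ratio of Apoe between the libraries was 0.58, beside 0.60 in all cells of the cluster. No doublet caller was run.

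Fewer genes were higher than lower in cluster 4 against the other B cell clusters. Of 8336 genes with at least 50 UMIs in each library, 4 were at least 2-fold higher in both libraries (0.048%) and 71 at least 2-fold lower (0.852%). Past 0.5 on the log2 scale in both libraries, 84 genes were higher (1.01%) and 547 lower (6.56%), and the median log2 ratio of all 8336 genes was -0.16 in 5XFAD and -0.14 in WT. With median-of-ratios scaling, which sets the median gene to 0, 9 genes were 2-fold higher and 39 lower, and 208 were past 0.5 higher and 284 lower, so that 42.3% of these were higher against 13.3% by total UMIs. Ratios below are by total UMIs and are read beside the all-gene medians. Beside Apoe, the genes past 2-fold were Rgs10, Dtx4 and the gene model Gm34215, named after their values were seen. Rgs10, a regulator that shuts off G protein signalling, stood at 21.1 CPM in cluster 4 of 5XFAD and at 32.7 CPM in that of WT, against 4.29 and 6.30 CPM, with log2 ratios of 2.30 (1.62 to 2.96) and 2.38 (1.81 to 2.93). Its ratio was larger than that of Apoe in both libraries, on 35 UMIs in 5XFAD and 46 in WT. Dtx4, a Deltex family ubiquitin ligase, stood at 10.2 CPM in 5XFAD and at 12.8 CPM in WT, against 4.01 and 4.26 CPM.

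The 12 higher genes chosen by rule were Apoe, Plac8, Pold4, Slfn2, Mzb1, Ifngr2, Mxd4, Fcrla, Fcmr, Rack1, Kxd1 and Gpi1. Ifngr2, the signalling chain of the interferon gamma receptor, stood at 149 CPM in cluster 4 of 5XFAD and at 154 CPM in that of WT, against 78.1 and 101 CPM in the other 5 clusters, with log2 ratios of 0.93 and 0.60. In WT this level was close to the 149 CPM of cluster 3. Slfn2, a Schlafen protein that keeps lymphocytes quiescent in mice, stood at 174 CPM in 5XFAD and at 188 CPM in WT, against 109 and 96.7 CPM (0.68 and 0.96). Cluster 0 held 217 CPM of it in 5XFAD, above cluster 4. Pold4, the small subunit of DNA polymerase delta, stood at 406 CPM in 5XFAD and at 477 CPM in WT, against 243 and 304 CPM (0.74 and 0.65). Mxd4, a repressor that competes with MYC for its partner MAX, stood at 61.4 CPM in 5XFAD and at 86.1 CPM in WT, against 39.4 and 51.7 CPM (0.64 and 0.73). Kxd1, which takes part in lysosome positioning, stood at 68.6 CPM in 5XFAD and at 87.5 CPM in WT, above the highest of the 5 clusters, 56.9 CPM in 5XFAD and 54.0 CPM in WT. Gpi1, the second enzyme of glycolysis, stood at 162 CPM in 5XFAD and at 179 CPM in WT, against 114 and 131 CPM (0.51 and 0.44).

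Among the 12 lower genes, Myc, the transcription factor that drives growth, stood at 27.7 CPM in cluster 4 of 5XFAD and at 37.0 CPM in that of WT, against 108 and 95.4 CPM, with log2 ratios of -1.96 (-2.42 to -1.54) and -1.37 (-1.80 to -0.97). Clusters 1 and 5 held the most Myc, 213 and 173 CPM in 5XFAD and 156 and 172 CPM in WT, while cluster 3 lay near cluster 4, with 31.4 CPM of it in 5XFAD and with 48.4 CPM in WT. Plk2, a polo-like kinase induced by stress and growth signals, stood at 26.5 CPM in 5XFAD and at 43.4 CPM in WT, against 119 and 128 CPM (-2.16 and -1.56). Cluster 6 held less Plk2 than cluster 4, 12.6 CPM in 5XFAD and 19.5 CPM in WT. Cluster 4 held less of it than each of clusters 0 to 3 and 5, whose lowest value was 66.1 CPM in 5XFAD and 88.4 CPM in WT. Klf2, a transcription factor that keeps lymphocytes quiescent and recirculating, stood at 300.3 CPM in 5XFAD and at 309 CPM in WT, against 652 and 812 CPM (-1.12 and -1.39), again below each of those clusters. Without cluster 5, where Klf2 reached 1536 CPM in 5XFAD and 2128 CPM in WT, its ratio in WT was -0.85. Irf4, a transcription factor of activated B cells and plasma cells, stood at 34.3 CPM in 5XFAD and at 61.2 CPM in WT, against 86.3 and 136 CPM (-1.33 and -1.16), and the lowest of the other 5 clusters stood at 36.6 CPM in 5XFAD and at 75.2 CPM in WT. Samsn1, an adaptor that restrains B cell activation, stood at 131 CPM in 5XFAD and at 50.5 CPM in WT, against 321 and 140 CPM (-1.29 and -1.47). Gpr183, the oxysterol receptor that guides B cells within lymphoid tissue, stood at 109 CPM in 5XFAD and at 152 CPM in WT, against 251 and 303 CPM (-1.20 and -0.99). Without cluster 5 the ratios of Gpr183 were -1.09 in 5XFAD and -0.67 in WT. Jun had ratios of -1.16 in 5XFAD and -1.48 in WT, but -0.27 and -0.26 without cluster 5, whose Jun level was the highest of the 5 clusters. Emp3, Mpp7, Idi1, Egr3 and Stap1 made up the rest of the 12.

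**Figure D3:**
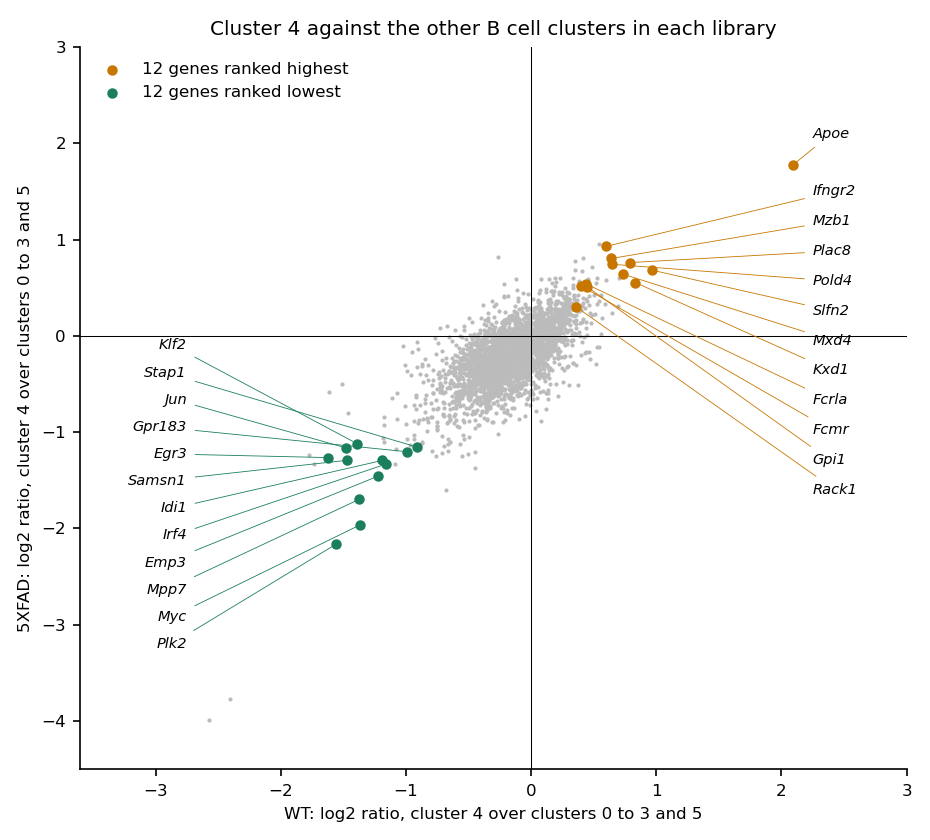
Log2 ratio of CPM in cluster 4 over clusters 0 to 3 and 5, in 5XFAD (vertical axis) against WT (horizontal axis). Each point is a gene that reached 50 CPM in cluster 4 or the rest in either library, and the 12 highest and 12 lowest genes by rule are coloured and named. Apoe lies apart at 1.78 in 5XFAD and 2.09 in WT, and the lone pair of points at the lower left is Hspa1a and Hspa1b. Clusters were formed from these genes, so the plot describes and does not test.

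Genes of cholesterol synthesis and uptake were mostly lower in cluster 4. Of 21 measured members, 0 were past 0.5 higher and 12 past 0.5 lower in both libraries, beside 1.01% and 6.56% of all genes, with a median of -0.88 in 5XFAD and -0.61 in WT, against the -0.16 and -0.14 of all genes. Without cluster 5, 11 were lower, beside 6.19% of all genes, with medians of -0.85 and -0.63, and with median-of-ratios scaling 7 were lower. Hmgcs1, which makes HMG-CoA, stood at 29.5 CPM in cluster 4 of 5XFAD and at 40.5 CPM in that of WT, against 61.7 and 92.2 CPM (-1.07 and -1.19). Idi1, the isopentenyl diphosphate isomerase, stood at 42.7 CPM in 5XFAD and at 39.8 CPM in WT, against 105 and 90.7 CPM (-1.29 and -1.19). Of the 5 other clusters, cluster 1 held the most Idi1, 152 CPM in 5XFAD and 139 CPM in WT. Cluster 0 held the least of them, 61.5 and 51.4 CPM, and cluster 6 held 43.6 and 19.5 CPM. The part of cluster 1 in the low ratios of this list was not tested. Msmo1, a sterol demethylase, had ratios of -0.85 in 5XFAD and -1.18 in WT. Insig2, which holds the pathway's transcription factor back in the endoplasmic reticulum, had ratios of 0.04 and 0.36. Of 13 genes of lipoprotein handling and cholesterol efflux, 1 was past 0.5 higher in both libraries, which was Apoe, and 0 were lower. Abca1, the main efflux pump, had ratios of -0.05 in 5XFAD and 0.01 in WT.

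The proximal promoters of 3 of these low genes are printed to show the sequence context of the set, from RefSeq on GRCm38.p6, each 250 bases before to 50 after the start site and read 5′ to 3′ on the gene's strand. Capitals mark CACCCCAC, a core of sterol regulatory elements bound by SREBP factors, in Hmgcs1 (chr13:119690101-119690400, plus strand), and CCAATCA, the CCAAT box bound by NF-Y, in Idi1 (chr13:8885356-8885655, plus strand, motif on the reverse strand) and Msmo1 (chr8:64733529-64733828, minus strand).
Hmgcs1: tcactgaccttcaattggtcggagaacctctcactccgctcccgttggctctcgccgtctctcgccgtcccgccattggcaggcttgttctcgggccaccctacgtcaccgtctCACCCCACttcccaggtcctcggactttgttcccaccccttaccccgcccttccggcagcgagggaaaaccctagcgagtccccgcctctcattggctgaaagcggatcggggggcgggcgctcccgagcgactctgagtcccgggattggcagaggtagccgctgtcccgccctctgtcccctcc
Idi1: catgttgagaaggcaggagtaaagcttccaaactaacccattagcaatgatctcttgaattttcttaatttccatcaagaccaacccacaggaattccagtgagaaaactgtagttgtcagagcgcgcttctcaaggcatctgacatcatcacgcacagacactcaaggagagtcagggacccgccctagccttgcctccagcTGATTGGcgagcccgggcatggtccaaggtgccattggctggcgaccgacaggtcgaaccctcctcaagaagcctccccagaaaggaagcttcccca
Msmo1: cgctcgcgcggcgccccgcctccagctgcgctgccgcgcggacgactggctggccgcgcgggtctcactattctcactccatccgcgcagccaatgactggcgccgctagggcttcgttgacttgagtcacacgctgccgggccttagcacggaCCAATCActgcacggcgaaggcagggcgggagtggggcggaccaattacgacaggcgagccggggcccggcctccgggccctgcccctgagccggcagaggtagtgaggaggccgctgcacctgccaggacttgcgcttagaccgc
A promoter was found for 14 of the 22 genes of the list. On either strand, CACCCCAC lay in a promoter of 1 of the 14 genes, and of 3.30% of all 27025 genes with promoters of this length. CCAATCA lay in a promoter of 8 of the 14 genes, and of 9.00% of all 27025. Of all 32851 single promoters, 2.87% held CACCCCAC and 7.82% held CCAATCA. Matches of the motifs overlapped in 0 promoters, and a match describes the sequence and not a bound site. The motifs were chosen with the expression values known.

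Immediate early genes, which are switched on within minutes by activation and also by tissue dissociation, were mostly lower in cluster 4. Of 30 measured members, 0 were past 0.5 higher and 17 past 0.5 lower in both libraries, beside 1.01% and 6.56% of all genes. Of the 30, 29 were below 0 in both, with medians of -0.75 in 5XFAD and -0.73 in WT. Without cluster 5, 13 were past 0.5 lower, beside 6.19% of all genes, and the medians were -0.58 and -0.51, and with median-of-ratios scaling 15 were. Egr1, a growth factor response transcription factor, stood at 18.7 CPM in cluster 4 of 5XFAD and at 26.3 CPM in that of WT, against 46.8 and 87.5 CPM (-1.33 and -1.73). Nr4a1, an orphan receptor induced by antigen receptor signals, stood at 212 CPM in 5XFAD and at 204 CPM in WT, against 399 and 381 CPM (-0.91 and -0.90). Dusp2, a phosphatase of MAP kinases, stood at 167 CPM in 5XFAD and at 130.2 CPM in WT, against 331 and 231 CPM (-0.99 and -0.83). Of 16 heat shock genes, 0 were higher and 5 lower, and 2 were lower without cluster 5. Hspa1a, an inducible HSP70 chaperone, stood at 1.20 CPM in cluster 4 of 5XFAD and at 19.9 CPM in that of WT (2 and 28 UMIs), against 19.1 and 119 CPM in the other clusters. Its near-identical neighbour Hspa1b had 0 and 36 UMIs, so the split of reads between the pair is uncertain.

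Of 20 nucleolar and ribosome biogenesis genes, 0 were past 0.5 higher and 5 lower in both libraries, beside the same 1.01% and 6.56% of all genes. Of the 20, 18 were below 0 in both, with medians of -0.51 in 5XFAD and -0.35 in WT. Without cluster 5, 8 were lower, beside 6.19% of all genes. Cluster 1, against which 131 of 5922 genes were at least 2-fold lower in cluster 4, supplied 645 of the 2079 other cells in 5XFAD. The list was not read without cluster 1, so its part in these low ratios was not tested. Ncl, nucleolin, stood at 779 CPM in cluster 4 of 5XFAD and at 749 CPM in that of WT, against 1242 and 1009 CPM (-0.67 and -0.43), while Npm1, nucleophosmin, had ratios of 0.12 and 0.13. Of 25 genes of folding and secretion in the endoplasmic reticulum, 1 was higher, which was Mzb1, and 4 were lower, which were Dnajb9, Ddit3, Atf4 and Calr, and 1 was lower with median-of-ratios scaling. Calr, the chaperone calreticulin, stood at 439 CPM in 5XFAD and at 425 CPM in WT, against 636 and 615 CPM (-0.53 and -0.53). Of 46 genes of oxidative phosphorylation 0 were past 0.5 in either direction in both libraries, with medians of 0.03 and 0.10. Of 12 measured cell cycle genes 1 was lower, and Mki67, a marker of dividing cells, had a UMI in 1 of 285 cells in 5XFAD and 0 of 240 in WT, which allows a share of cells with a UMI of up to 1.25% in WT.

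The lists for named B cell subsets are read beside the same shares of all genes, 1.01% higher and 6.56% lower. Some lists hold marker genes of cluster 4: Mzb1 (marginal zone, endoplasmic reticulum), Plac8 (interferon), Apoe (lipoprotein), and Fcmr and Fcrla (Fc receptors). Their ratios add nothing to the marker levels given above. All 10 measured follicular genes were below 0 in both libraries and 4 were past 0.5 lower, with medians of -0.47 in 5XFAD and -0.42 in WT, and 2 were past 0.5 lower without cluster 5 and also with median-of-ratios scaling. Fcer2a, the low-affinity IgE receptor CD23 of follicular cells, stood at 195 CPM in cluster 4 of 5XFAD and at 243 CPM in that of WT, against 327 and 393 CPM (-0.75 and -0.69). Cxcr5, the receptor for the follicle chemokine, had ratios of -0.52 and -0.52, and Cr2, complement receptor 2, ratios of -0.29 and -0.19. Of 11 marginal zone genes, 3 were past 0.5 higher and 0 lower, which were Mzb1, Cd9 and Fcrl5, and the list's median was 0.16 in 5XFAD and -0.11 in WT, so its sign differed between the libraries. With median-of-ratios scaling it was 0.32 and 0.03. Fcrl5, an Fc receptor-like protein of marginal zone, B-1 and atypical B cells in mice, stood at 14.4 CPM in 5XFAD and at 7.11 CPM in WT, against 5.13 and 4.70 CPM, and Cd9, a tetraspanin, at 13.8 and 8.54 CPM, against 9.05 and 5.15 CPM. At these levels both genes rested on few UMIs in cluster 4 of WT, so their ratios there are uncertain. Cd5, a marker of B-1a cells, had 0 UMIs in all 525 cells of cluster 4, which allows a share of cells with a UMI of up to 1.05% in 5XFAD and 1.25% in WT, but it was also rare in clusters 0 to 3 and 5, at 0.481% and 0.957% of cells. Of 4 measured B-1 genes Cd9 was past 0.5 higher and S100a6 past 0.5 lower in both libraries, with a median of 0.50 in 5XFAD and -0.46 in WT. Of 3 measured germinal centre genes 0 were higher and 2 lower, with medians of -0.56 and -0.76. Of 7 measured transitional and immature genes 2 were lower, Cd93 and Atp1b1. Atp1b1 rested on 5 UMIs in cluster 4 of each library, with an interval of -2.70 to 0.26 in 5XFAD. Outside the subset lists, Cd180, a surface partner of LY86 in toll-like signalling, had ratios of -1.14 and -0.69.

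Of 20 B cell receptor and coreceptor genes, 0 were past 0.5 higher and 1 lower in both libraries, a share near the 6.56% of all genes, which was Pik3ap1, an adaptor to PI3 kinase (-0.68 in 5XFAD and -0.61 in WT). Of 15 MHC class II genes and of 19 MHC class I genes, 0 were past 0.5 in either direction, with medians between -0.17 and -0.14, beside the -0.16 and -0.14 of all genes, and between -0.01 and 0.02 with median-of-ratios scaling. Of 19 B cell transcription factors 0 were higher and 6 lower, which were Klf2, Irf4, Id3, Spi1, Bcl6 and Irf8. Pax5, the factor that fixes B cell identity, had ratios of 0.02 and -0.31. Of 6 Fc receptor genes, Fcrl5, on few UMIs in WT, was past 0.5 higher and Fcer2a past 0.5 lower in both libraries. The medians of the list were 0.34 and 0.38. Fcmr and Fcrla, both among the marker genes of the cluster, joined the higher ones with median-of-ratios scaling. Of 15 genes of interleukin 4, 21 and STAT signalling 2 were lower, Il21r, the interleukin 21 receptor (-0.90 and -0.75), and Fcer2a. Of 19 trafficking genes 0 were higher and 5 lower, and 2 were lower without cluster 5. Itga4, the integrin alpha chain of the gut homing receptor, stood at 202 CPM in 5XFAD and at 308 CPM in WT, against 155 and 227 CPM (0.38 and 0.44).

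Lists of receptors for survival factors, innate sensors and the further sets below stand beside the same 1.01% higher and 6.56% lower of all genes. Of 9 BAFF, APRIL and CD40 receptor genes 0 were higher and 2 lower in both libraries, Tnfrsf13c and Traf3, and 0 were lower with median-of-ratios scaling. Tnfrsf13c, the BAFF receptor that keeps mature B cells alive, stood at 46.9 CPM in cluster 4 of 5XFAD and at 98.2 CPM in that of WT, against 102 and 146 CPM (-1.12 and -0.57). Of 15 toll-like receptor signalling genes 2 were lower, Cd180 and Rela, an NF-kB subunit with ratios of -0.81 in 5XFAD and -0.70 in WT. Of 15 apoptosis and survival genes 0 were higher and 2 lower, which were Pmaip1, which encodes the death-promoting protein NOXA (-1.72 and -0.89), and Pim1, a survival kinase (-0.72 and -0.89). Of 17 lysosome and protease genes 0 were past 0.5 in either direction in both libraries. Of 21 type I interferon response genes, Plac8 was past 0.5 higher and Isg15 and Ddx58 were past 0.5 lower in both libraries, and Isg15 rested on 8 UMIs in 5XFAD and 2 in WT. Of 11 memory and atypical genes 2 were higher, Fcrl5, on few UMIs in WT, and Nt5e, an enzyme that makes adenosine (0.58 and 0.64). In the same list 1 was lower, Ahnak (-1.10 and -0.65). The light chain constant genes Iglc1 and Iglc2 were the 2 of 8 immunoglobulin constant genes past 0.5 lower, and 0 of the 8 were past it without cluster 5. How reads divide among the closely alike Iglc1, Iglc2 and Iglc3 is uncertain.

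**Figure D4:**
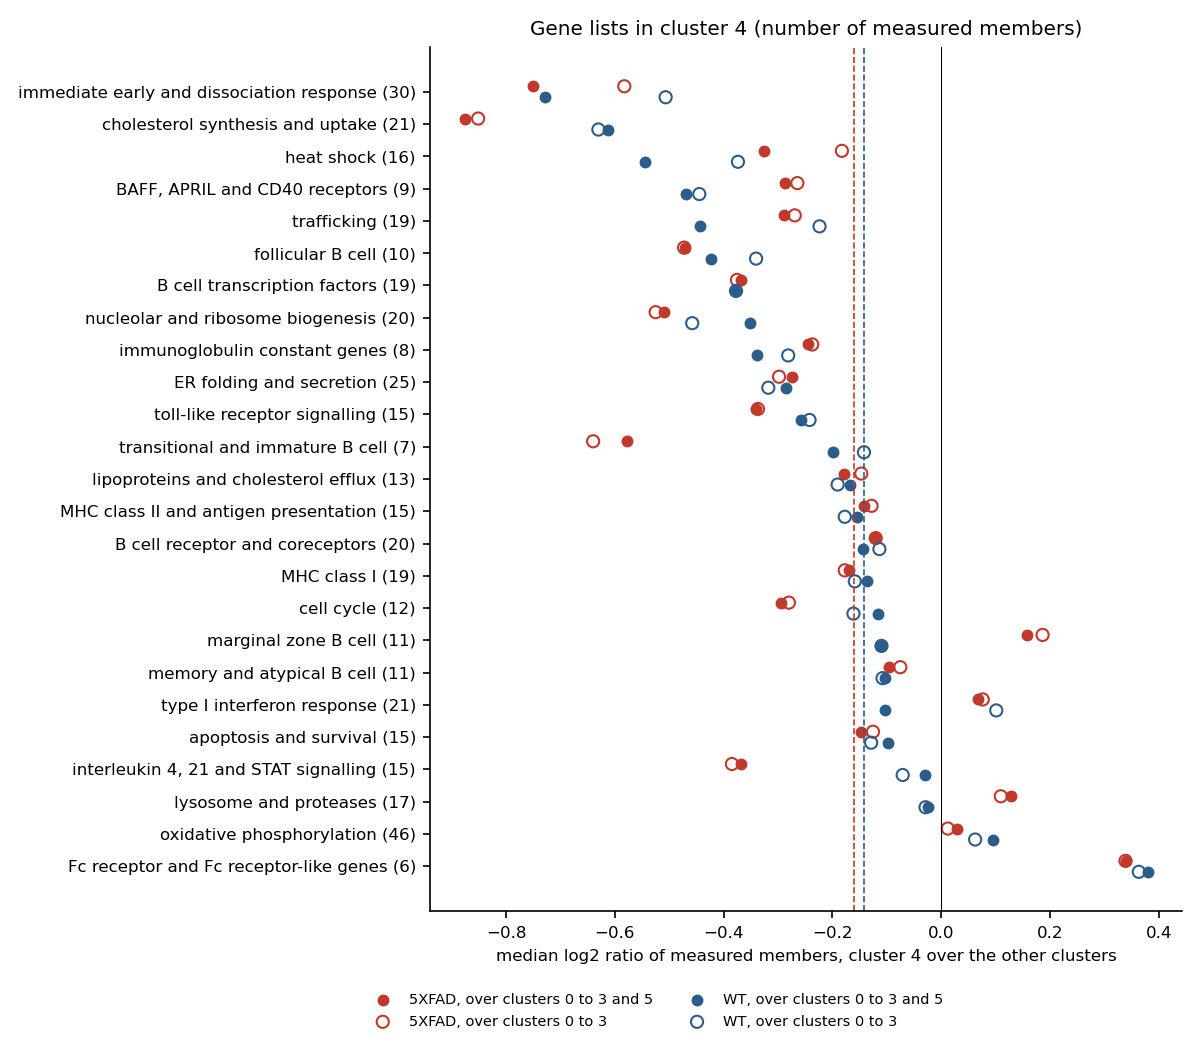
Median log2 ratio of the measured members of each gene list in cluster 4 over the other B cell clusters, with 5XFAD above WT in each row. Filled points use clusters 0 to 3 and 5, open points leave out cluster 5, and dashed lines mark the median of all 8336 genes (-0.16 in 5XFAD and -0.14 in WT). Among the filled points cholesterol synthesis and immediate early genes lie lowest and Fc receptor genes highest. The Fc receptor list holds Fcmr and Fcrla, which are among the genes used to mark the cluster. Among the open points of 5XFAD the transitional and immature list (-0.64) lies below immediate early genes (-0.58).

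Between the libraries, Apoe in cluster 4 was higher in 5XFAD than in WT. It stood at 2001 CPM in 5XFAD, on 3326 UMIs, and at 1316 CPM in WT, on 1850 UMIs, a 1.52-fold difference with a log2 ratio of 0.60 (0.52 to 0.69). The same direction was seen in each of the other 5 clusters, with a log2 ratio of 0.92 (0.86 to 0.98) over their sum, and the ratio in cluster 4 minus that of the sum was -0.32 (-0.42 to -0.21). In clusters 6 and 7 the ratios were 0.37 (0.29 to 0.46) and 0.73 (0.49 to 0.98). The single cell with the most Apoe held 58 UMIs in 5XFAD and 41 in WT, and without those cells the ratio was 0.61. Plac8 had a ratio of 0.20 (0.11 to 0.29), Fcrla of -0.24 (-0.42 to -0.06), Fcmr of 0.05 (-0.09 to 0.20) and Mzb1 of -0.04 (-0.23 to 0.15).

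Of 5295 genes that reached 50 UMIs in cluster 4 of both libraries together, 478 were past 0.5 higher in 5XFAD (9.03%) and 1029 past 0.5 lower (19.4%), with a median log2 ratio of -0.09. The split depended on scaling: with median-of-ratios scaling 665 genes were higher and 760 lower, so that 46.7% of the genes counted were higher, against 31.7% by total UMIs. In clusters 0 to 3 and 5, 7.22% of 9506 genes were past 0.5 higher and 19.7% past 0.5 lower. Of the 478 genes higher in cluster 4, 191 were past 0.5 higher and 45 were below 0 in the other clusters. Of the 1029 lower genes, 501 were past 0.5 lower and 61 above 0 there. Transcript length went with the ratio: across 5272 genes, Spearman's rho between the ratio and the longest annotated transcript was -0.47, as a description. The median length was 1958 bases for genes past 0.5 higher in 5XFAD, 4937 bases for those past 0.5 lower and 3449 bases for all, and the part of length in the differences below was not tested.

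Genes higher in 5XFAD by rule included Tmem80, Samsn1, Ost4, Atp5md, Ndufa12, Uqcrb, Snrpf, Ndufb1-ps, Atp5k, Polr2k and Rnaset2a. Atp5md and Atp5k, subunits of ATP synthase, had ratios of 1.08 and 1.07, with 1.42 and 0.93 in the other clusters. Ndufa12, an accessory subunit of respiratory complex I, stood at 62.6 CPM in 5XFAD and at 22.8 CPM in WT, a ratio of 1.46 (0.88 to 2.08), with 0.65 in the other clusters. Uqcrb, a subunit of complex III, stood at 151 CPM in 5XFAD and at 64.7 CPM in WT, a ratio of 1.22 (0.87 to 1.58), with 0.68 in the other clusters. Samsn1, low in cluster 4 as a whole, stood at 131 CPM in 5XFAD and at 50.5 CPM in WT, a ratio of 1.38 (0.98 to 1.78), with 1.20 in the other clusters. Tmem80 had the largest ratio of these 11, 1.81 (1.11 to 2.57), but 34 of its 87 UMIs in 5XFAD came from 1 cell. Ost4, a subunit of the enzyme that attaches sugars to proteins, had a ratio of 1.19, and Polr2k, a subunit shared by RNA polymerases, a ratio of 1.14, with 1.37 and 0.72 in the other clusters.

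Among the genes lower in 5XFAD by rule, Fosb and Jun, subunits of the AP-1 transcription factor, had the largest differences. Jun stood at 33.7 CPM in cluster 4 of 5XFAD and at 157 CPM in that of WT, a ratio of -2.22 (-2.67 to -1.79), and Fosb at 35.5 and 166 CPM, a ratio of -2.22 (-2.66 to -1.81). Cd69, an early activation marker that retains lymphocytes in tissue, stood at 96.3 CPM in 5XFAD and at 251 CPM in WT, a ratio of -1.38 (-1.66 to -1.11). Ciita, the master activator of MHC class II genes, stood at 40.9 CPM in 5XFAD and at 119 CPM in WT, a ratio of -1.54 (-1.97 to -1.12), with -1.79 in the other clusters. H2-Ab1, a chain of MHC class II, stood at 4190 CPM in 5XFAD and at 3235 CPM in WT, a ratio of 0.37 (0.32 to 0.43). Ptpn6 and Cd22, a phosphatase and a lectin that dampen B cell receptor signals, had ratios of -1.49 and -1.30, near the -1.35 and -1.18 of the other clusters. Igha, the IgA heavy chain, stood at 15.6 CPM in 5XFAD and at 61.2 CPM in WT, on 26 and 86 UMIs. 0 cells of cluster 4 were called IgA in either library, and IgA was called in 4 T or innate lymphoid cells of 5XFAD and 14 of WT. Lars2, Chst3, Macf1 and Myh9 had ratios of -1.25, -1.73, -1.24 and -1.17.

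**Figure D5:**
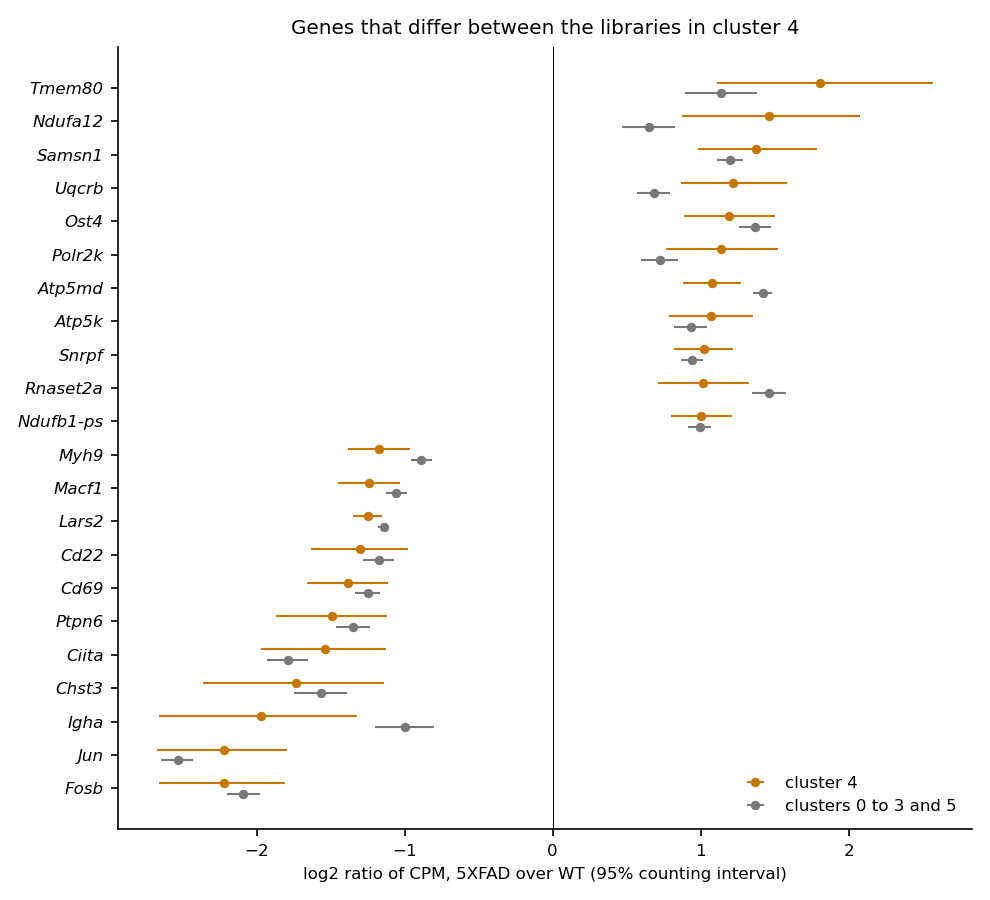
Log2 ratio of CPM, 5XFAD over WT, for 11 genes higher and 11 lower in 5XFAD in cluster 4 by rule, with the ratio in cluster 4 drawn above that in clusters 0 to 3 and 5. Bars are 95% intervals that cover counting error only. Each gene has the same direction in cluster 4 and in the other clusters, with Jun at -2.22 and -2.53.

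The lists were also read between the libraries in cluster 4, beside their medians in clusters 0 to 3 and 5. Over all genes of cluster 4, 9.03% were past 0.5 higher and 19.4% past 0.5 lower in 5XFAD, and a count near these shares is no result about a list. Of 46 oxidative phosphorylation genes, 12 were past 0.5 higher and 0 lower in 5XFAD, and 42 were above 0, with a median of 0.36, against 0.40 in the other clusters, and a median transcript length of 865 bases. Of 20 B cell receptor genes 0 were higher and 6 lower (median -0.35, against -0.51). Of 18 B cell transcription factors 0 were higher and 9 lower (median -0.48, against -0.54), with Irf8 at -0.86 and Ikzf1 at -0.94. Of 28 immediate early genes 1 was higher and 9 lower (median -0.33, against -0.32), with Nr4a2 at 0.78 and Nr4a1 at 0.06. Of 10 follicular genes 0 were higher and 4 lower (median -0.47, against -0.41), with Cr2 at -1.04 and Icosl, the ligand of ICOS on T cells, at -1.22. Of 8 memory and atypical genes 0 were higher and 5 lower (median -0.67, against -0.46), with Cd38 at -1.08. Of 12 cholesterol genes 0 were higher and 4 lower (median -0.44, against -0.23). Ighm, the IgM heavy chain, stood at 833 CPM in 5XFAD and at 1334 CPM in WT, a ratio of -0.68 (-0.78 to -0.58), with -0.64 in the other clusters. Of 13 MHC class II genes 2 were higher and 1 lower (median 0.10, against 0.12).

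The ratio between the libraries in cluster 4 departed furthest from that in the other 5 clusters in 8 genes chosen by rule. Bmyc, a short relative of Myc, stood at 52.4 CPM in cluster 4 of 5XFAD and at 41.3 CPM in that of WT, against 29.7 and 49.6 CPM in the other clusters, a difference between the ratios of 1.09 (0.57 to 1.60, from the 4 counts). Nol11, a ribosome biogenesis factor, stood at 62.6 CPM in 5XFAD and at 27.0 CPM in WT, against 67.5 and 55.0 CPM, a difference of 0.92 (0.36 to 1.47). Lrp10, an endocytic receptor, stood at 53.6 CPM in 5XFAD and at 103 CPM in WT, against 95.3 and 106 CPM, a difference of -0.79 (-1.19 to -0.39). Marcks, a membrane protein that binds actin, stood at 86.6 CPM in 5XFAD and at 126 CPM in WT, against 102 and 90.6 CPM, a difference of -0.71 (-1.05 to -0.37). Arid1a and Ltb had differences of 0.68 and 0.53, and Cep57 and Hspa9 of -0.84 and -0.67. Opposite directions were sought among genes with 50 CPM or more in cluster 4 of either library, outside the classes left out of the rankings. There, 0 genes were past 0.5 in opposite directions in cluster 4 and the other clusters with both intervals off 0. The 8 genes named above were picked as the extremes of the genes that passed this 50 CPM filter, so their differences describe these libraries only. The mix of the other 5 clusters differed between the libraries: cluster 5 supplied 119 of their 2079 cells in 5XFAD and 396 of 2298 in WT. Cluster 5 held the most Bmyc of them, 69.4 CPM in 5XFAD and 89.5 CPM in WT. The part of this mix in the ratios of the other clusters was not tested, and the intervals do not cover it.

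The genes whose level was most like that of Apoe over the 34 sums of cluster and library were Ifi30, Marcks, Erp29, Gngt2 and Cybb, with Pearson's r of log2(CPM + 1) of 0.91, 0.89, 0.88, 0.88 and 0.88 among 1996 candidates. The points share 2 libraries. Ifi30, a lysosomal thiol reductase of antigen processing, stood at 103 CPM in 5XFAD and at 142 CPM in WT, against 134 and 190 CPM (-0.38 and -0.43). Erp29, a chaperone of the endoplasmic reticulum, stood at 171 CPM in 5XFAD and at 198 CPM in WT, against 146 and 162 CPM (0.23 and 0.29).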

How the data were processed

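Colon CD45+ cells of 1 pooled library per genotype were analysed, with Cell Ranger 6.0.1 and genome build mm10 named in the submitters' processing notes. Filters applied afterwards by the authors were not stated. The authors deposited natural log values, ln(1 + UMIs per 10000), for 32285 genes, and metadata with UMI counts, percent of mitochondrial UMIs and cluster numbers. The library named AD was taken as 5XFAD, the only one that is not WT. Counts were recovered from the deposited log values and totals: 100% of 11758401 nonzero values were whole within 0.001. The deposited SCT table (natural log, 14128 genes) was an alternative.

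UMIs were summed per cluster and library and scaled to CPM (Python 3.11.15, numpy 2.4.6, scipy 1.17.1, pandas 2.3.3). Ratios have exact conditional binomial intervals, a difference of ratios a normal interval from the 4 counts, and a class with 0 UMIs was given a floor of 3 counts. Genes needed 50 UMIs, and named genes 50 CPM. Named were the 12 higher and 12 lower by the interval bound nearest no change in either comparison, 4 each way for the difference of ratios, the 5 most like Apoe, and extreme or defining list members. Antigen receptor segments, ribosomal protein, mitochondrially encoded and sex-linked genes and unnamed models were left out of the first 3 rankings. Cells, lists and rules were chosen with earlier results of these data known. On simulated Poisson counts of 5295 genes for 5XFAD over WT in cluster 4, 95.8% of intervals held the true ratio. The simulation held no uneven expression between cells, so it checks the calculation only. Some genes that these rules name are not reported here.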

Additional observations from a re-analysis of the deposited data

How the results depend on the processing

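No paired analysis was possible because each genotype is 1 pooled library. With median-of-ratios scaling Apoe in cluster 4 had a 5XFAD over WT log2 ratio of 0.70, and its ratio of cluster 4 over clusters 0 to 3 and 5 was 1.94 in 5XFAD and 2.23 in WT. Thinned to 3000 UMIs per cell, the ratios of cluster 4 over those clusters were 1.90 in 5XFAD and 2.24 in WT. Under median-of-ratios scaling 9 genes were at least 2-fold higher and 39 at least 2-fold lower in cluster 4. Between the libraries, a minimum of 20 UMIs gave 861 genes higher and 1760 lower in 5XFAD, and a minimum of 1 UMI gave 2340 and 3866, since more genes entered. Thinning gave 350 higher and 659 lower, of 3437 genes measured. Over clusters 0 to 5 the share of cluster 4 was 12.1% in 5XFAD and 9.46% in WT. Of these main values and counts, 26 moved by less than their spread or 1.5 times under the alternatives and 14, all given above, by more. Of the other values (list medians and named genes), 235 moved by less and 6 by more. Among these, 4 small values changed sign. Under median-of-ratios scaling the 5XFAD over WT value was 0.05 for both Mzb1 and the MHC class I median, against -0.04 and -0.05. Thinning gave a cell cycle median of 0.17, against -0.21. Without cluster 5 the type I interferon median of cluster 4 over the other clusters in WT was 0.10, against -0.10. Scaling lists between clusters by median of ratios turned medians from below to above 0 in 4 of 25 lists in 5XFAD (0.01 to 0.06, against -0.15 to -0.10) and in 8 of 25 in WT (0.01 to 0.12, against -0.14 to -0.02). The cause of these shifts was not tested. After thinning 1 list had too few measured genes to give a median. Ratios of genes with few UMIs in cluster 4 had wide intervals. The comparison without cluster 5 for lists and named genes, and the scaling of lists between clusters, were added after the data were seen.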
